A study of Homo sapiens with 16 samples.

Results

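Cholesterol and fatty acid synthesis was followed through 30 genes, 21 of the sterol branch and 9 of the fatty acid branch, taken by gene name from the 57500 genes of the count and TPM tables. All 30 were among the 17306 genes with enough counts to test. The cells were HEK293T, a line derived from human embryonic kidney, grown with 10% serum, and a lentiviral vector for H2A or its mutant was present in every group. The 4 groups had 4 libraries each: H2A(E92K) cells with DMSO (E92K), H2A cells with 1 µM JQ1 for 3 h, H2A cells with 2.5 µM pinometostat for 24 h, and H2A cells with DMSO. E92K puts lysine in place of a glutamate of the acidic patch, a docking surface of the nucleosome. JQ1 blocks the bromodomains by which BET proteins hold acetylated histones. Pinometostat is an inhibitor of the histone H3 methyltransferase DOT1L. The sample titles name DMSO, while the treatment field lists no compound for those samples and gives no time. All comparisons with DMSO share its 4 H2A libraries, so they are not independent of each other. JQ1 was given only for 3 h and pinometostat only for 24 h, so time and compound cannot be told apart. The treatment protocol gives pinometostat in mM and the sample field in µM, and the sample field is followed here. Samples are numbered, with nothing said of separate cultures. The p-values therefore rest on the spread of these samples alone, and that spread may be technical.

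The sterol branch turns acetyl-CoA into mevalonate, joins isoprenoid units into squalene, closes squalene into lanosterol and trims lanosterol to cholesterol. The fatty acid branch makes cytosolic acetyl-CoA from citrate, builds palmitate from it, and then elongates and desaturates the chain. Both are controlled by the SREBP transcription factors, which SCAP carries from the endoplasmic reticulum to be cut when sterols are low and which INSIG proteins hold back when sterols are high; SREBF2 encodes the form best known for sterol genes and SREBF1 the forms best known for fatty acid genes.

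Promoters of 26 of the 30 genes were matched by symbol in RefSeq (GRCh38.p14; not ACAT2, FDFT1, SQLE or FASN), as windows from 250 bases before to 50 bases after the start. Where a gene had several windows, the one nearest the gene's 5′ end was used, a rule set after hits in all windows had been seen. For DHCR7, CYP51A1, ACLY, FADS1 and FADS2 the window used lay furthest inside the gene span of the count tables. That of FADS2 began at 61815953, where the gene began at 61792980. These windows may thus miss the promoter at the 5′ end. The 5 motifs searched, on both strands, were the CCAAT box (CCAAT), the core of the sterol response element (SRE core, CACNCCA), a longer SRE (TCACNCCAC, which contains the core), the E box (CACGTG, the same on both strands) and the GC box (GGGCGG). The CCAAT box stood in 15 of 18 sterol windows (83.3%) and in 2 of 8 fatty acid windows (25%), against 34.6% of all 35116 windows. The SRE core stood in 8 of 18 sterol windows (44.4%) and 1 of 8 fatty acid windows (12.5%), against 17.6% of all windows, and the longer SRE in SREBF2 alone among the 26, against 1.13%. The E box was found in 3 of 18 sterol and 0 of 8 fatty acid windows, against 7.26%, and the GC box in 16 of 18 and 6 of 8, against 45%. With any listed window counted, the CCAAT box stood in 16 of 18 sterol and 4 of 8 fatty acid genes (39.7% of all 27305 symbols), and the SRE core in 9 of 18 and 4 of 8 (20.6%). The CCAAT box stood in 6 of the 6 sterol genes with a window that were called higher with JQ1 and in 9 of the other 12, and the SRE core in 4 of 6 and 4 of 12. A match describes letters only and is not a binding site.

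Of the 26 promoters, 6 are printed, chosen after the expression values were seen. They are INSIG1, HMGCS1 and NSDHL, which were higher with JQ1, HSD17B7 and SREBF1, which differed with pinometostat, and SREBF2, the regulator. All are written 5′ to 3′ on the strand of the gene, and capitals mark the CCAAT box (CCAAT or ATTGG) and the SRE core (CACNCCA or TGGNGTG). In NSDHL a forward and a reverse CCAAT box share 2 bases. The windows are chr7:155297628-155297927 (plus strand), chr5:43313363-43313662 (minus), chrX:152830813-152831112 (plus), chr22:41832855-41833154 (plus), chr1:162790452-162790751 (plus) and chr17:17836937-17837236 (minus).
INSIG1: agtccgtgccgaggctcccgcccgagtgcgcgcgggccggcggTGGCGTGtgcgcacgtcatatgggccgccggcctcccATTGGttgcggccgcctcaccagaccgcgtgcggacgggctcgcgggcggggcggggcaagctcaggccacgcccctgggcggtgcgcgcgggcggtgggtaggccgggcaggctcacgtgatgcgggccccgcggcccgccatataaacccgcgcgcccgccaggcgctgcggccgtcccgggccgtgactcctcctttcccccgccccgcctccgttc
HMGCS1: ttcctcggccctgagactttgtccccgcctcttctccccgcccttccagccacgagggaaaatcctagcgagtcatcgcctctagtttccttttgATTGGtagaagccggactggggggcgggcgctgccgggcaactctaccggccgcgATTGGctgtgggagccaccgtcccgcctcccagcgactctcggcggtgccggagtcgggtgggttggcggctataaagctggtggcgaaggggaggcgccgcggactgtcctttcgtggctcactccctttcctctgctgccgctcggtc
NSDHL: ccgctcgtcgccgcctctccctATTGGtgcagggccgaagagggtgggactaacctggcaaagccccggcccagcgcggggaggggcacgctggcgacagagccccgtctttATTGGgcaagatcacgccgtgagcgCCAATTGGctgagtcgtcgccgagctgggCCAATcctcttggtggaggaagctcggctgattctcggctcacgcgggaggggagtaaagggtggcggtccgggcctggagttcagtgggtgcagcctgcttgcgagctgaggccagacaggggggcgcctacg
SREBF2: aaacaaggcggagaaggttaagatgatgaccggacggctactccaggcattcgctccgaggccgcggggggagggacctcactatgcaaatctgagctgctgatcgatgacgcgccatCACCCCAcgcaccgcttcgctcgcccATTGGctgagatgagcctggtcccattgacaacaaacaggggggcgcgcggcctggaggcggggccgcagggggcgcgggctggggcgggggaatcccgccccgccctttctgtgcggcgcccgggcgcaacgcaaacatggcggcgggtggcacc
HSD17B7: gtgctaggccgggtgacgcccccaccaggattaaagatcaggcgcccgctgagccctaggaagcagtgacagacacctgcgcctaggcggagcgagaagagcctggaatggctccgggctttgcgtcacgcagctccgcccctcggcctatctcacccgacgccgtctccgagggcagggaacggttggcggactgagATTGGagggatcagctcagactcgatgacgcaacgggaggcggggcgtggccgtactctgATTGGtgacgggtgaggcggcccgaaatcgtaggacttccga
SREBF1: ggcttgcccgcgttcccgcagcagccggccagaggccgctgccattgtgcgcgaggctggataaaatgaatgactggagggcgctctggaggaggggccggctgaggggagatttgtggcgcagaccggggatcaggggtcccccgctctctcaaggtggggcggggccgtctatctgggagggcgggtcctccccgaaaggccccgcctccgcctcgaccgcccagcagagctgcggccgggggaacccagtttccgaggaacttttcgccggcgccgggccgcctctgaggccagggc
NSDHL held 5 CCAAT boxes and no SRE core, HMGCS1 and HSD17B7 held 2 CCAAT boxes each, and SREBF2 and INSIG1 held 1 of each motif. SREBF1 held neither.

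Library totals ran from 17779692 to 27599686 counts. JQ1 replicate 1 and E92K replicate 4 differed from their groups. Mitochondrially encoded genes made up 16.5% of JQ1 replicate 1 and 3.04% to 3.69% of the remaining JQ1 libraries, and 7.45% of E92K replicate 4 and 3.77% to 4.95% of the remaining E92K libraries. These shares were 4.43% to 5.04% with pinometostat and 3.66% to 4.02% in H2A with DMSO. Levels are in CPM, counts scaled to a common library size with TMM factors, and differences are log2 fold changes ± SE. In bulk RNA, fewer cells of a type and less RNA per cell cannot be told apart. JQ1 replicate 1 is shown apart, and the values without it stand beside the results they bear on. HEXIM1, a common marker of BET inhibition, was higher with JQ1 by 2.08 ± 0.18 (adjusted p by edgeR and Benjamini-Hochberg = 4.30e-07) and by 1.78 without replicate 1. Of 8 HEK293 lineage markers all 8 exceeded 1 CPM on average, as did 0 of 6 hepatocyte, 0 of 5 adipocyte, 5 of 5 fibroblast and 1 of 5 blood cell markers. The summed lineage markers ran from 842.3 to 1427 CPM with JQ1, 664.6 to 894.3 with E92K, 511.3 to 632.1 with pinometostat and 693.1 to 858.7 in H2A with DMSO. The summed fibroblast markers ran from 259.7 to 475.2 CPM with JQ1, 190.4 to 282.6 with E92K, 158.9 to 268.6 with pinometostat and 231.5 to 295.0 in H2A with DMSO. The part of these levels in the results was not tested.

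**Figure D1:**
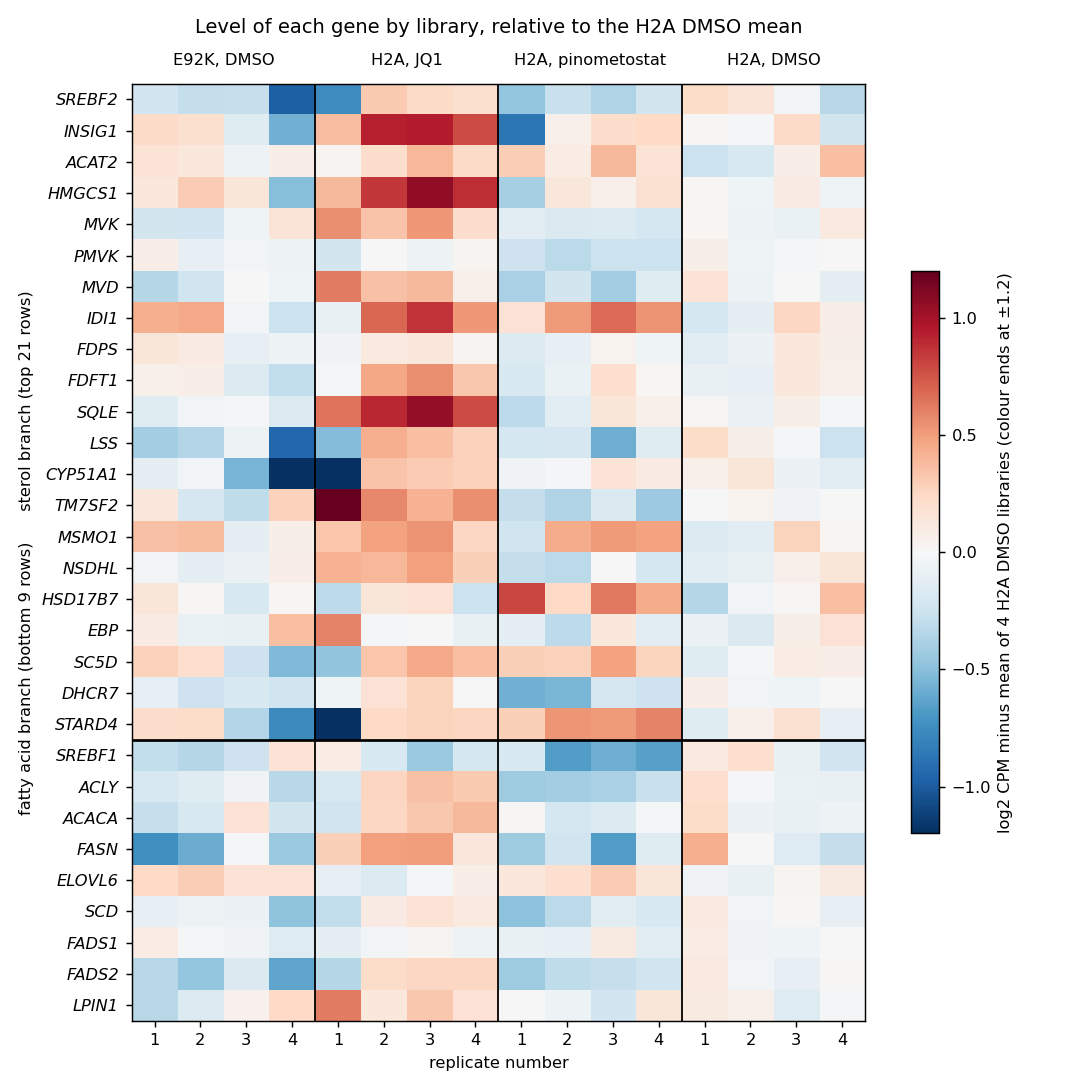
Heat map of the 30 genes (rows, sterol branch above the line) in the 16 libraries (columns, by group and replicate number). Colour is the log2 CPM difference from the mean of the 4 H2A libraries with DMSO, red for higher; JQ1 replicates 2 to 4 are red in most sterol rows, while JQ1 replicate 1 is blue for CYP51A1 and STARD4.

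Within H2A cells with DMSO, the genes spanned a wide range per length. Stearoyl-CoA desaturase SCD, which makes oleate, led at 549.9 ± 59.8 TPM (mean ± SD, n = 4), and its libraries did not overlap those of ATP citrate lyase ACLY, next at 306 ± 44.6 TPM. INSIG1 followed at 256 ± 35.3 TPM and squalene epoxidase SQLE at 222 ± 11.8 TPM. ACLY, INSIG1 and SQLE each overlapped the gene next in order. Mevalonate kinase MVK at 11.8 ± 0.793 TPM and the phosphatidate phosphatase LPIN1 at 7.33 ± 0.912 TPM were the lowest, and these did not overlap each other. SREBF2 had 133 ± 28.2 TPM and SREBF1 22.7 ± 4.21 TPM.

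JQ1 was set against DMSO to see how transcripts stood 3 h after BET bromodomains were blocked. Of 21 sterol genes 7 rose and 0 fell: INSIG1, the mevalonate enzymes HMGCS1, MVK and MVD, the squalene enzyme SQLE, and TM7SF2 and NSDHL of the steps after lanosterol. Of 9 fatty acid genes 0 passed the test. Over all 17306 genes, 7.16% were called higher and 10.4% lower (17.6% in either direction), so 7 of 21 sterol genes called higher was above the background for that direction. The genes were chosen with earlier results of these data known, so this excess is a description and not a test of the branch. The count also depended on the scaling, as given below. The median log2 fold change was 0.21 over the sterol branch and 0.11 over the fatty acid branch, against 0.04 over all genes. Without JQ1 replicate 1, 8 sterol genes and 0 fatty acid genes rose, against 6.3% of all genes higher (11.9% lower, 18.2% in either direction), and the medians were 0.32 and 0.17, against 0.00.

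INSIG1 (ENSG00000186480, chromosome 7, 155297776 to 155310235, GRCh38), which retains SCAP in the endoplasmic reticulum and is itself an SREBP target, had 369, 545, 549.9 and 493 CPM in JQ1 replicates 1 to 4, against 288, 282, 336 and 246 CPM in the H2A libraries with DMSO. All JQ1 libraries lay above all DMSO libraries, with JQ1 replicate 1 the nearest to them. The difference was 0.76 ± 0.22 (edgeR Benjamini-Hochberg adjusted p = 0.0197), and 0.85 ± 0.20 without JQ1 replicate 1 (edgeR adjusted p = 0.00353). Its call was lost in 4 of 21 alternative settings, among them leaving out JQ1 replicate 2 (0.71) or DMSO replicate 4 (0.69). SREBF2 (ENSG00000198911, chromosome 22, 41833079 to 41907308) had 179.9, 378, 355 and 346 CPM with JQ1, against 353, 338, 296 and 241 CPM with DMSO. Its JQ1 replicate 1 was the lowest of these 8 libraries and replicate 2 the highest, so the groups overlapped. The difference was 0.04 ± 0.20 (edgeR adjusted p = 0.927) and 0.20 ± 0.15 without replicate 1 (adjusted p = 0.406).

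In the mevalonate segment, HMG-CoA synthase HMGCS1 (ENSG00000112972, chromosome 5, 43289395 to 43313512), which condenses acetyl-CoA with acetoacetyl-CoA, had 182, 249.9, 291 and 256 CPM with JQ1, against 139.9, 134, 149 and 134 CPM with DMSO. The groups did not overlap, and the difference was 0.82 ± 0.17 (edgeR adjusted p = 0.00243) and 0.91 without replicate 1. MVK, which phosphorylates mevalonate, was higher by 0.41 ± 0.11 (edgeR adjusted p = 0.0126), with 31.3 ± 3.45 CPM in JQ1 cells and 23.5 ± 1.502 CPM in H2A cells with DMSO (SD, n = 4 each). The decarboxylase MVD was called at 0.36 ± 0.12 (edgeR adjusted p = 0.0454) although its groups overlapped. It lost the call in 17 of its 21 alternative settings, among them leaving out JQ1 replicate 1 (0.24, adjusted p = 0.16), 2 or 3 or DMSO replicate 2, 3 or 4. The isomerase IDI1 (ENSG00000067064, chromosome 10, 1039908 to 1049170), which makes dimethylallyl diphosphate, had 148, 253, 286 and 225 CPM with JQ1, against 135, 144, 187 and 165 CPM with DMSO. Its JQ1 replicate 1 lay among the DMSO libraries and the other JQ1 libraries lay above all of them. The difference was 0.53 ± 0.19 (edgeR adjusted p = 0.0652) with that library and 0.66 ± 0.15 (adjusted p = 0.00337) without it, and DESeq2 called it with all libraries. The thiolase ACAT2, the kinase PMVK and farnesyl diphosphate synthase FDPS, with differences of 0.20, -0.06 and 0.06, did not pass, and stood at 0.23, -0.04 and 0.07 without replicate 1. FDPS and IDI1 have related copies elsewhere in the genome that could share their reads, so their levels are uncertain.

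SQLE (ENSG00000104549, chromosome 8, 124998497 to 125022283), the oxygen-dependent step before ring closure, had 463, 550.2, 611 and 504 CPM with JQ1, against 296, 279, 309 and 291 CPM with DMSO. Even the lowest JQ1 library, replicate 1, lay above the highest DMSO library. The difference of 0.86 ± 0.11 had the smallest adjusted p of the 30 genes (edgeR, 3.78e-05), and was 0.89 without that library. Squalene synthase FDFT1 (ENSG00000079459, chromosome 8, 11795573 to 11839309) had 237, 331, 353 and 300.1 CPM with JQ1, against 225, 225, 262 and 250.8 CPM with DMSO. Only JQ1 replicate 1 overlapped the DMSO libraries, and the difference was 0.34 ± 0.13 (edgeR adjusted p = 0.0775) with it and 0.42 ± 0.11 (adjusted p = 0.00903) without it. The lanosterol synthase LSS, at 0.17 with all libraries and 0.32 without replicate 1, passed in neither fit.

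Beyond lanosterol, the sterol reductase TM7SF2 (ENSG00000149809, chromosome 11, 65111845 to 65116384) had 73.4, 42.1, 37.8 and 41.5 CPM with JQ1, against 28.2, 29.1, 27.3 and 28.3 CPM with DMSO. Here JQ1 replicate 1 was the highest library, and the remaining JQ1 libraries still lay above every DMSO library. The difference was 0.78 ± 0.17 (edgeR adjusted p = 0.00429), and 0.49 ± 0.12 without that library (adjusted p = 0.00482). NSDHL, a dehydrogenase of C-4 demethylation, averaged 146 ± 8.47 CPM in JQ1 cells and 111 ± 9.84 CPM in H2A cells with DMSO (SD, n = 4 each) and was higher by 0.39 ± 0.10 (edgeR adjusted p = 0.00988). Without JQ1 replicate 1, NSDHL was at 0.36 and MVK at 0.33, both still called. Each of these genes lost the call in 4 of 21 alternative settings. The C-4 methyl oxidase MSMO1 (0.40), its partner reductase HSD17B7 (-0.07), the isomerase EBP (0.14), the desaturase SC5D (0.21), the final reductase DHCR7 (0.10), the demethylase CYP51A1 (-0.02) and the sterol carrier STARD4 (-0.01) did not pass, nor did they without JQ1 replicate 1. In that fit CYP51A1 was at 0.27 (edgeR adjusted p = 0.471) and STARD4 at 0.22 (adjusted p = 0.397), both turned to above 0 and with the 3 JQ1 libraries above every DMSO library, while EBP turned to -0.07, HSD17B7 was at -0.02, MSMO1 at 0.39, SC5D at 0.35 and DHCR7 at 0.12. CYP51A1 shares 78.8% of its exon bases with LRRD1 on the same strand, and 43% of the exon bases of ACAT2 lie opposite SOD2, so levels of both depend on a counting rule and strand setting not given in the sources used here.

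Among fatty acid genes, SREBF1 (ENSG00000072310, chromosome 17, 17810399 to 17837002) had 59.1, 48.8, 40.8 and 47.8 CPM with JQ1, against 60.4, 63.9, 52.1 and 47.2 CPM with DMSO, and the groups overlapped. Its difference of -0.19 ± 0.15 did not pass (edgeR adjusted p = 0.425), and was -0.32 without replicate 1 (adjusted p = 0.14). The synthase FASN at 0.34 ± 0.17 and LPIN1 at 0.32 ± 0.14 had the highest values of the branch with all libraries. ACLY and the carboxylase ACACA stood at 0.19 and 0.19, the desaturases FADS2, SCD and FADS1 at 0.11, 0.03 and -0.04, and the elongase ELOVL6 at -0.05. With replicate 1 left out, FASN was at 0.33, ACLY at 0.28, ACACA at 0.28, FADS2 at 0.21, LPIN1 at 0.17, SCD at 0.10, FADS1 at -0.05 and ELOVL6 at -0.06. Groups did not overlap, JQ1 above DMSO, for 6 sterol genes and 1 fatty acid gene, against 8.26% of all genes; without JQ1 replicate 1 these counts were 12 and 4, against 16.5%. The count of 7 sterol genes fell to 3 with library size alone as scaling, to 4 with the 8 libraries of this comparison alone and to 1 with limma on log2(TPM + 1). On the TPM scale the sterol median turned to -0.08, where the median of all genes was -0.21, and 209 genes were called higher and 2174 lower, against 1239 and 1805 with TMM. Library size alone gave 433 and 2605 and upper quartile scaling 816 and 2160. Of the 30 genes, TM7SF2 alone was called in all 21 alternative settings.

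**Figure D2:**
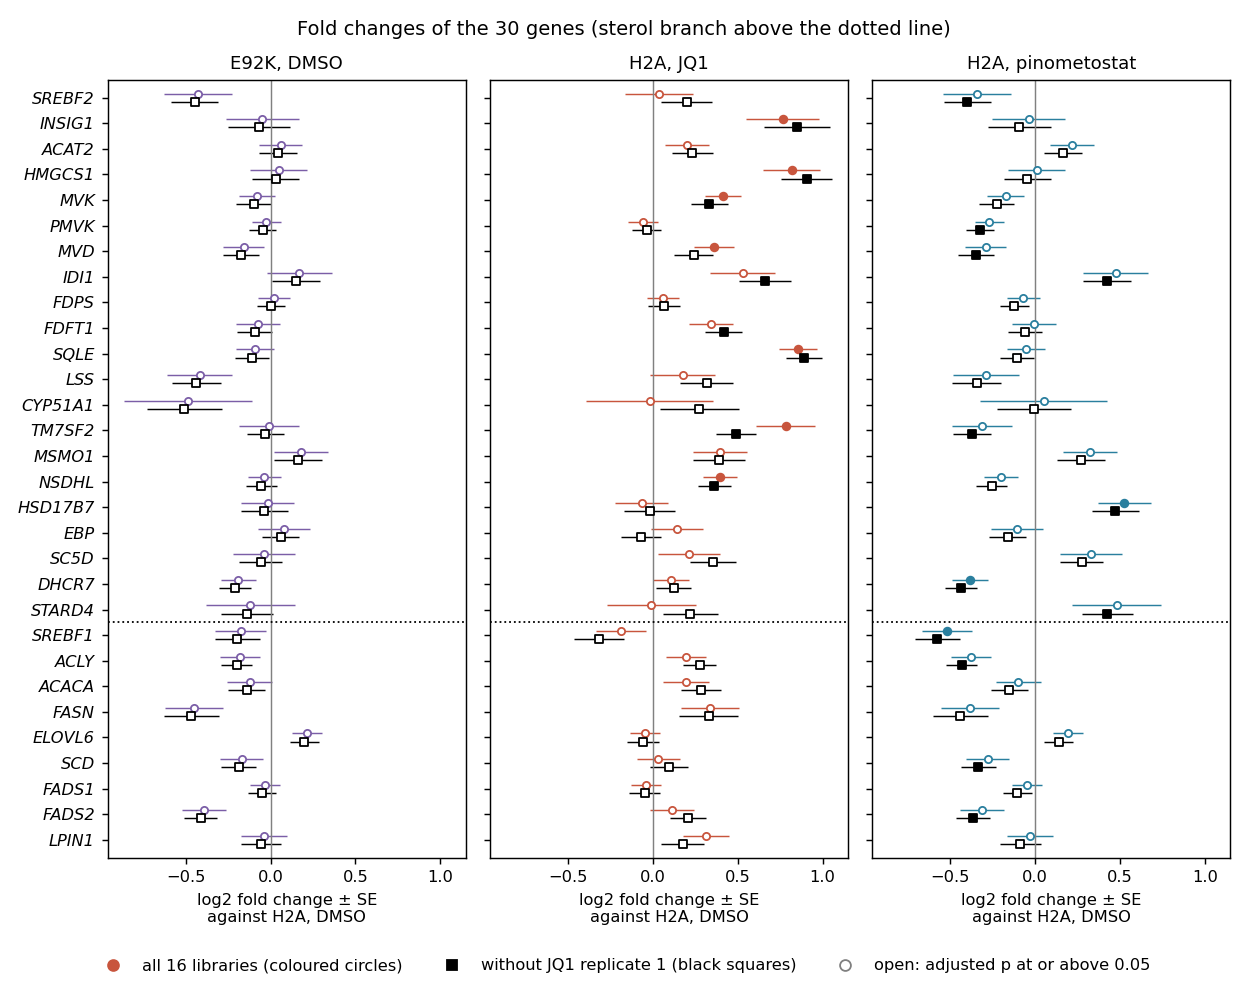
Log2 fold change ± SE of each gene against H2A with DMSO, for E92K, JQ1 and pinometostat, in the fit of all 16 libraries (coloured circles) and without JQ1 replicate 1 (black squares). Filled symbols have an edgeR adjusted p below 0.05; the JQ1 panel holds 7 filled circles, all in the sterol branch, and the E92K panel holds none.

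**Figure D3:**
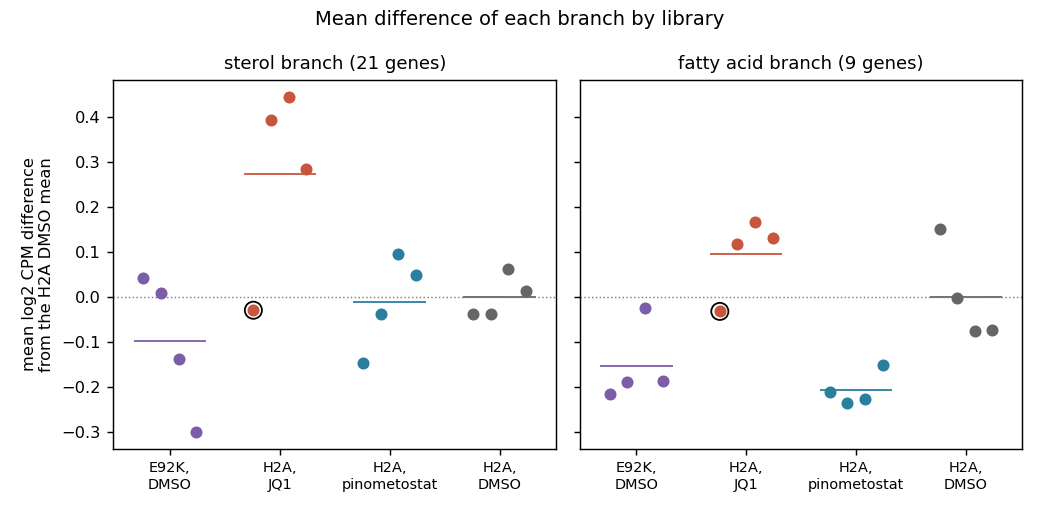
Mean log2 CPM difference from the H2A DMSO mean over the 21 sterol genes and the 9 fatty acid genes, a point per library and a line per group mean, with JQ1 replicate 1 ringed. JQ1 replicates 2 to 4 lie at 0.28 to 0.45 for sterol genes, and JQ1 replicate 1 at -0.03.

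By library, the mean difference of the sterol genes from the DMSO mean was 0.39, 0.45 and 0.28 in JQ1 replicates 2, 3 and 4 and -0.03 in replicate 1. In those 3 libraries 20, 19 and 19 of 21 sterol genes lay above the DMSO mean, and 10 of 21 in replicate 1. For fatty acid genes the means were 0.12, 0.17 and 0.13 in replicates 2 to 4 and -0.03 in replicate 1. The DMSO libraries themselves ran from -0.04 to 0.06 for sterol genes and from -0.08 to 0.15 for fatty acid genes.

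JQ1 replicate 1 differed from its group in both directions. CYP51A1 had 6.52, 37.2, 36.4 and 35.5 CPM in JQ1 replicates 1 to 4 and STARD4 14.8, 43.96, 44.7 and 44.3 CPM, so both were lowest in replicate 1, while their differences from DMSO stood above 0 without it. EBP was highest there, with 177, 116, 117 and 110.3 CPM. E92K replicate 4 was the lowest of its group for CYP51A1 and STARD4 as well, with 27.2, 28.7, 19.98 and 7.95 CPM and 42.9, 43.4, 29.1 and 21.8 CPM in E92K replicates 1 to 4. Over the 30 genes, the deviations of these libraries, a pair chosen after the values were seen, from the remaining libraries of their groups had a Spearman rho of 0.90, and JQ1 replicate 1 with pinometostat replicate 1 had 0.34. The points share the genes and each library's depth, and no test was made. The rho of the same deviation with transcript GC content was 0.43 in JQ1 replicate 1 and 0.53 in E92K replicate 4, within the range of -0.76 to 0.57 over all 16 libraries. The part of the mitochondrial share and of GC content in these deviations was not tested.

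**Figure D4:**
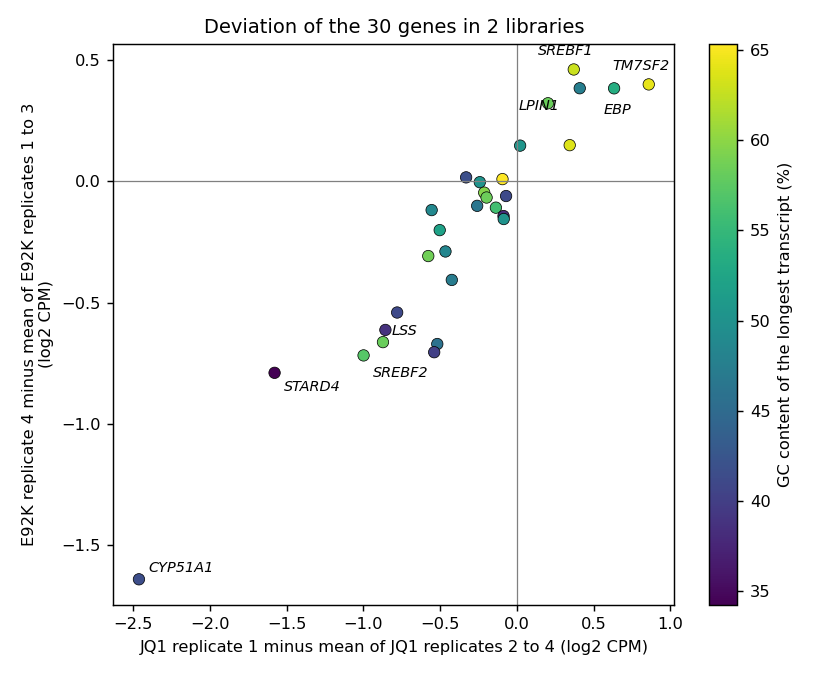
Deviation of each of the 30 genes in JQ1 replicate 1 (x axis) and E92K replicate 4 (y axis) from the mean of the other 3 libraries of the group, in log2 CPM, coloured by the GC content of the longest transcript. CYP51A1 and STARD4 are lowest on both axes, and the points run along a rising line (Spearman rho 0.90, n = 30).

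Pinometostat was compared with DMSO to find transcripts that differed after 24 h of DOT1L inhibition. HSD17B7 rose, while DHCR7 and SREBF1 fell, so 3 of 30 genes passed the test. Over all genes 8.2% were called, 3.62% higher and 4.58% lower, so 3 of 30 was near the background. The median was -0.05 over the sterol branch and -0.28 over the fatty acid branch, against 0.03 over all genes. Without JQ1 replicate 1, which belongs to neither group compared but shares the estimate of spread, 3 sterol genes rose and 5 fell and 4 fatty acid genes fell, against 21% of all genes (7.21% higher and 13.8% lower). No gene of the 30 was called with the replicate number as a block, with limma on log2(TPM + 1) or with an offset for GC content added after the data were seen. On the TPM scale 69 genes of all tested were higher and 388 lower, against 626 and 793 with TMM, and upper quartile scaling gave 774 and 580.

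HSD17B7 (ENSG00000132196, chromosome 1, 162790702 to 162812817), the keto reductase of C-4 demethylation, had 50.2, 33.99, 44.7 and 39.2 CPM in pinometostat replicates 1 to 4, against 22.7, 28.1, 29.1 and 36.96 CPM in the H2A libraries with DMSO. DMSO replicate 4 lay above pinometostat replicate 2, so the groups overlapped. The difference was 0.52 ± 0.16 (edgeR adjusted p = 0.0463), and the gene has near-identical copies that could share its reads. DHCR7 (ENSG00000172893, chromosome 11, 71428193 to 71452868), which makes cholesterol from its 7-dehydro precursor, had 120.2, 123, 156 and 151 CPM with pinometostat, against 189, 176, 173 and 179.9 CPM with DMSO. All pinometostat libraries lay below all DMSO libraries, and the difference was -0.38 ± 0.11 (edgeR adjusted p = 0.0346).

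SREBF1 had 48.8, 34.9, 36.9 and 35.3 CPM with pinometostat, against 60.4, 63.9, 52.1 and 47.2 CPM with DMSO. Pinometostat replicate 1 lay among the DMSO libraries and the others below all of them. The difference was -0.52 ± 0.15 (edgeR adjusted p = 0.0402). HSD17B7, DHCR7 and SREBF1 each lost the call in 11 of 22 alternative settings. For HSD17B7 these included leaving out pinometostat replicate 1, 3 or 4 or DMSO replicate 1, 2 or 3, for DHCR7 pinometostat replicate 1 or 2 or any DMSO replicate, and for SREBF1 pinometostat replicate 2, 3 or 4 or DMSO replicate 1, 2 or 3. None of these settings turned the direction of the 3 genes. In the fit without JQ1 replicate 1, HSD17B7 was at 0.47, DHCR7 at -0.44 and SREBF1 at -0.58 (edgeR adjusted p = 0.0195, 0.00374 and 0.00524).

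ACLY (ENSG00000131473, chromosome 17, 41866908 to 41930542) had 365, 367, 373 and 406 CPM with pinometostat, against 561, 480.0, 464 and 458 CPM with DMSO. The groups did not overlap, and the difference was -0.38 ± 0.12 (edgeR adjusted p = 0.0575) with all libraries and -0.43 ± 0.09 (adjusted p = 0.00302) without JQ1 replicate 1. FADS2 (ENSG00000134824, chromosome 11, 61792980 to 61867354), the delta-6 desaturase, had 42.96, 46.9, 47.7 and 48.9 CPM with pinometostat, against 62.8, 56.5, 53.8 and 58.4 CPM with DMSO. It did not overlap either, at -0.31 (adjusted p = 0.133) and, without JQ1 replicate 1, -0.37 (edgeR adjusted p = 0.0125). SCD (ENSG00000099194, chromosome 10, 100347124 to 100364834) had 645, 722, 825 and 796 CPM with pinometostat, against 984, 882, 913 and 847 CPM with DMSO. All 4 lay below the DMSO libraries, with a difference of -0.28 (adjusted p = 0.174) and, without JQ1 replicate 1, -0.33 (edgeR adjusted p = 0.0264). The remaining fatty acid genes were FASN (-0.38), ACACA (-0.10), FADS1 (-0.05), LPIN1 (-0.03) and ELOVL6 (0.19), which alone was above 0, and none passed in either fit.

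In the sterol branch, PMVK (ENSG00000163344, chromosome 1, 154924734 to 154936991) had 38.8, 36.9, 38.6 and 38.7 CPM with pinometostat, against 48.5, 44.5, 45.3 and 46.3 CPM with DMSO. TM7SF2 had 23.1, 21.9, 24.98 and 20.8 CPM with pinometostat, against 28.2, 29.1, 27.3 and 28.3 CPM with DMSO, and MVD (ENSG00000167508, chromosome 16, 88651935 to 88663161) had 44.5, 50.03, 43.5 and 52.4 CPM, against 65.1, 55.8, 58.2 and 54.1 CPM. Each of these lay below DMSO in every library. None passed with all libraries and each passed without JQ1 replicate 1, with adjusted p of 0.0577, 0.272 and 0.135 in the fit of all libraries and 0.0081, 0.0228 and 0.0252 without it (edgeR). IDI1 had 177, 223, 250.3 and 227 CPM with pinometostat, against 135, 144, 187 and 165 CPM with DMSO, and overlapped, at 0.48 (adjusted p = 0.127) and 0.42 (edgeR adjusted p = 0.0394). SREBF2 had 220.2, 252, 236 and 260.3 CPM with pinometostat and overlapped the DMSO libraries, with -0.34 ± 0.20 (edgeR adjusted p = 0.3), and passed without JQ1 replicate 1 at -0.40 ± 0.14 (adjusted p = 0.0453). INSIG1 had 157, 298, 330.4 and 337 CPM, where replicate 1 was the lowest of the 16 libraries, with a difference of -0.04 ± 0.21 (adjusted p = 0.939), and -0.09 without JQ1 replicate 1 (adjusted p = 0.761). The other sterol genes lay between -0.20 (NSDHL) and 0.48 (STARD4), apart from LSS at -0.29. Of these, STARD4 passed without JQ1 replicate 1, at 0.42 (edgeR adjusted p = 0.0495). Groups did not overlap for 3 genes above DMSO and 8 below, against 12.7% and 13.6% of all genes.

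**Figure D5:**
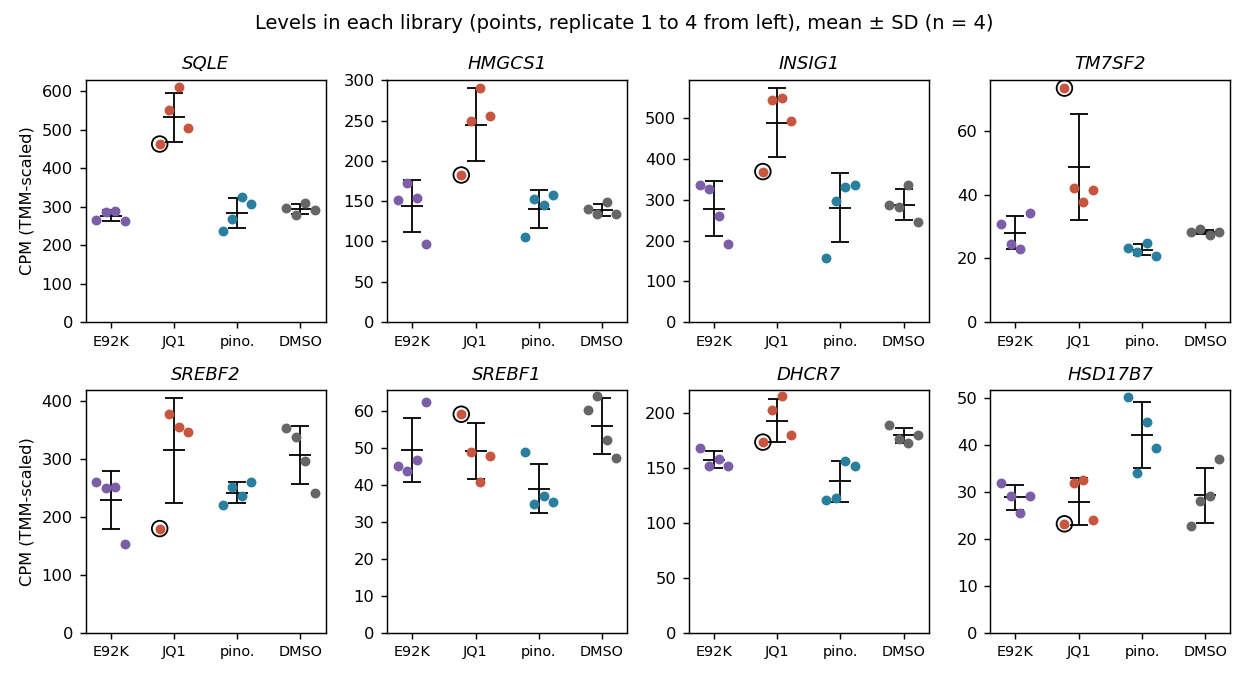
CPM of 8 genes in each library (points, replicates 1 to 4 from left, JQ1 replicate 1 ringed) for E92K, JQ1, pinometostat and H2A with DMSO, with the mean ± SD of each group (n = 4) as bars. SQLE, HMGCS1 and INSIG1 are above DMSO in all JQ1 libraries, and DHCR7 is below DMSO in all pinometostat libraries.

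E92K was compared with H2A, both with DMSO, to ask what the acidic patch substitution changed. No gene of the 30 passed the test, and neither did any of the 17306 genes (0%); without JQ1 replicate 1 the share was 0.0227% and 0 of the 30. At an unadjusted p below 0.05 there were 5 of the 30 genes and 1296 of all genes (7.49%), and without JQ1 replicate 1 there were 8 and 2744 (15.6%). DESeq2 called 4 genes, 0 of them among the 30. The sterol median was -0.04 and the fatty acid median -0.17, against 0.00 over all genes. INSIG1 had 336, 327, 259 and 192 CPM, SREBF2 259.7, 249.6, 251.0 and 154 CPM and SREBF1 45.1, 43.8, 46.7 and 62.3 CPM in E92K replicates 1 to 4, and each overlapped the H2A libraries with DMSO. ELOVL6 lay above DMSO in all E92K libraries and FADS2 and DHCR7 below, against 1.99% of all genes above and 3.2% below. The differences of INSIG1, SREBF2 and SREBF1 were -0.05 ± 0.21, -0.43 ± 0.20 and -0.18 ± 0.15. The 5 genes with an unadjusted p below 0.05 were FADS2 (-0.39), FASN (-0.45), ELOVL6 (0.22), LSS (-0.42) and SREBF2, each with an edgeR adjusted p of 0.656. Leaving out E92K replicate 4 put SREBF2 at -0.30 ± 0.19 (edgeR adjusted p = 0.943) and LSS at -0.30 ± 0.19 (adjusted p = 0.943). Their unadjusted p were 0.137 and 0.132, and CYP51A1 was at -0.24 ± 0.34. SREBF1, for which E92K replicate 4 was the highest of its group, moved further from 0, to -0.33 ± 0.15 (edgeR adjusted p = 0.943, unadjusted p = 0.0423). With all libraries, the genes other than those 5 lay between -0.49 (CYP51A1, with an SE of 0.38) and 0.18 (MSMO1). The sterol mean by library ran from -0.30 in E92K replicate 4 to 0.04, and the fatty acid mean from -0.21 to -0.02. Without JQ1 replicate 1 and E92K replicate 4 together, 0 of the 30 were called as well. SREBF2 was then at -0.27, LSS at -0.27, CYP51A1 at -0.22 and SREBF1 at -0.30 (edgeR unadjusted p = 0.0165, 0.0307, 0.0607 and 0.0193). In that fit 7 of the 30 genes and 2021 of 17446 genes had an unadjusted p below 0.05.

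JQ1 was also set directly against pinometostat, without the shared controls. Compound, dose and time all differ and cannot be told apart. Of the 30 genes 12 were higher with JQ1, 9 sterol and 3 fatty acid, and 2 were lower, against 34.2% of all genes called (16.8% higher and 17.4% lower). TM7SF2 differed by 1.097 ± 0.18 (edgeR adjusted p = 0.000147), SQLE by 0.91 ± 0.11 (adjusted p = 1.38e-05) and HMGCS1 by 0.81 ± 0.17 (adjusted p = 0.00134). INSIG1, MVD, NSDHL, MVK, DHCR7 and FDFT1 were the other sterol genes higher with JQ1, by 0.35 to 0.80. FASN (0.72 ± 0.17), ACLY (0.57 ± 0.12) and FADS2 (0.42 ± 0.13) were the fatty acid genes higher with JQ1 (edgeR adjusted p = 0.00366, 0.00129 and 0.0159). HSD17B7 (-0.59) and ELOVL6 (-0.24) were lower with JQ1 (adjusted p = 0.00737 and 0.044). With JQ1 replicate 1 left out, the counts were 17 higher and 1 lower, against 39.1% of all genes. Library size alone gave 1733 of all genes higher and 3822 lower, and the TPM values 972 and 2712, against 2915 and 3004 with TMM.

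E92K against JQ1 gave 12 genes lower in E92K, 9 sterol and 3 fatty acid, and ELOVL6 higher (0.26), against 22.9% of all genes called (11.9% higher and 10.9% lower). SQLE differed by -0.95 ± 0.11 (edgeR adjusted p = 1.33e-05) and FASN by -0.79 ± 0.17 (adjusted p = 0.00317). Without JQ1 replicate 1, 18 were lower and 1 higher, against 32%. Library size alone gave 2858 of all genes higher and 710 lower, and the TPM values 1885 and 295, against 2068 and 1894 with TMM. E92K against pinometostat gave 0 of the 30, against 0.352% of all genes, with 4 of the 30 and 3009 of all genes (17.4%) at an unadjusted p below 0.05 (10 and 4519, or 25.7%, without JQ1 replicate 1), and DESeq2 called 2 of the 30. When JQ1 replicate 1 was left out, STARD4 and HSD17B7 were lower in E92K and PMVK higher, against 10.2%. Genotype and treatment differ together in both comparisons.

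Other genes of the pathway were read from lists chosen with earlier results known. With JQ1, their counts stand against 7.16% of all genes called higher and 10.4% lower, and without JQ1 replicate 1 against 6.3% and 11.9%. Of 10 SREBP processing genes, 0 rose and 2 fell with JQ1: INSIG2, the relative of INSIG1 (-0.71), and the ubiquitin ligase RNF145 (-0.57; edgeR adjusted p = 0.00185 and 0.000975). Of 8 other sterol enzymes only POR, the electron donor of CYP51A1, was higher (0.39, adjusted p = 0.0384), and the call was lost without JQ1 replicate 1. Of 21 other fatty acid enzymes tested, 5 were higher with JQ1 and 0 lower, led by ACACB (0.62), the mitochondrial carboxylase, and the citrate carrier SLC25A1 (0.44); without JQ1 replicate 1 these were 2. Of 11 uptake, transport and storage genes none passed with JQ1, and of 7 LXR and efflux genes ABCG4 alone was lower (-0.78).

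With pinometostat, SCAP, which escorts SREBPs, was lower (-0.34 ± 0.10, edgeR adjusted p = 0.0402), as the one call among 10 SREBP processing genes. Of 7 LXR and efflux genes the sterol receptor NR1H2 was lower at -0.42 (edgeR adjusted p = 0.0262). Among 21 other fatty acid enzymes FADS3 was higher (0.45) and SLC25A1 lower (-0.39). Of 8 other sterol enzymes and 11 uptake genes 0 passed. These counts stand against 3.62% of all genes called higher and 4.58% lower. Without JQ1 replicate 1 the calls were 3 of SREBP processing, 2 of LXR and efflux, 4 of the other fatty acid enzymes, 1 of the other sterol enzymes and 2 of uptake, transport and storage, against 21% of all genes. With E92K, 0 genes of these lists passed.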

How the data were processed

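RNA-seq counts and TPM values of 16 libraries were used as deposited by the authors. The deposited counts are whole reads per gene, and the per-sample and series tables were identical in 920000 of 920000 values. The deposited TPM values by the authors equalled counts per length rescaled, within 0.1%, in all cells. The aligner, counter and strand setting were not given in the sources used here. Gene starts and ends matched GENCODE 29 (GRCh38) for 96.1% of 56898 shared IDs and 28 of the 30 genes.

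Counts were tested with edgeR 4.0.16 (quasi-likelihood F test, two-sided, TMM, filterByExpr with a minimum count of 10) in R 4.3.3, fitted to all 16 libraries with 1 coefficient per group (12 residual degrees of freedom), and Benjamini-Hochberg adjustment over 17306 genes at 0.05. The script was tested on simulated data. Alternatives used DESeq2 1.42.0, limma 3.58.1 (voom, and log2(TPM + 1) with a pseudocount of 1), other scalings and filters, single comparisons, the replicate number as a block and libraries left out. A lowess offset for GC content was added after the data were seen. Same-numbered libraries did not deviate together (r from -0.557 to 0.238). Members, lists, motifs and printed promoters were chosen with earlier results of these data known. The naming rule gives library values for up to 6 sterol and 4 fatty acid genes per comparison with the smallest adjusted p below 0.05 in the fit with or without JQ1 replicate 1, and for SREBF1, SREBF2 and INSIG1, and of each other list names up to 4 genes; some genes are not reported here. Figures used matplotlib 3.10.9 in Python 3.11.15.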

Additional observations from a re-analysis of the deposited data

Results flagged for a closer look

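In 19 of the 120 groups of 4 libraries (30 genes in 4 groups) a library lay far from the others by Dixon's test, where chance flags about 1 in 20 groups; genes of one library are not independent. JQ1 replicate 1 gave 8 of these. It was lowest of its group for SREBF2 (179.9 CPM, others 346 to 378), CYP51A1 (6.52, others 35.5 to 37.2), SC5D (65.5, others 115 to 125), STARD4 (14.8, others 44.0 to 44.7), SCD (736.9, others 968 to 1015) and FADS2 (45.6, others 67.2 to 68.6). It was highest for TM7SF2 (73.4 CPM, others 37.8 to 42.1) and EBP (177.4, others 110.3 to 116.9). E92K replicate 4 was lowest for SREBF2 (154 CPM, others 249.6 to 259.7) and SCD (647.6, others 848 to 866) and highest for SREBF1 (62.3, others 43.8 to 46.8). E92K replicate 3 was highest for ACACA (85.8 CPM), as was DMSO replicate 1 in its own group (88.6 CPM).

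With pinometostat, replicate 1 was lowest for MSMO1 (81.0 CPM, others 130.9 to 136.7) and highest for SREBF1 (48.8, others 34.9 to 36.9), and replicate 2 was lowest for PMVK (36.9 CPM). Replicate 3 was lowest for LSS (52.3 CPM) and highest for SC5D (126.8) and FADS1 (109.2).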

How the results depend on the processing

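Each comparison was repeated under 21 or 22 alternative settings, and no gene tabulated there reversed its direction. For JQ1 against DMSO, the count of 7 sterol genes was 3 with library size alone, 4 in the 8 libraries of the comparison, 1 with limma on log2(TPM + 1), and 5 to 8 with one library left out; fatty acid calls were 0 except 2 without JQ1 replicate 1 and E92K replicate 4 together and 2 with the GC offset (added after seeing the data) without JQ1 replicate 1. For pinometostat, where 2 sterol genes and 1 fatty acid gene were called, sterol calls were 1 with library size alone, 1 with no filter, 10 in the 8 libraries alone, 0 with the TPM values, 10 without JQ1 replicate 1 and E92K replicate 4, 0 with the GC offset and 0 with it without JQ1 replicate 1, and 0 to 8 with one library left out. Its fatty acid calls were 2 with DESeq2, 2 with DESeq2 size factors, 0 with the upper quartile, 2 with the filter of 50 counts in 4 libraries, 5 in the 8 libraries alone, 0 with the TPM values, 4 without both libraries, 0 with the GC offset and 2 with it without JQ1 replicate 1, and 0 to 4 with one library left out. Single libraries moved these counts: sterol calls were 0 without pinometostat replicate 1 or DMSO replicate 1, 2 or 3, and 8 without JQ1 replicate 1, and fatty acid calls were 0 without pinometostat replicate 2, 3 or 4 or DMSO replicate 1, 2 or 3, and 4 without JQ1 replicate 1. With the replicate number as a block, which the check of pairing gives no ground for, pinometostat had 0 sterol and 0 fatty acid calls, JQ1 had 6 sterol and 0 fatty acid calls, and E92K had 0 of both; JQ1 against pinometostat had 12, E92K against JQ1 10 and E92K against pinometostat 0. JQ1 against pinometostat, with 14 called, had 4 with the TPM values and 12 to 18 with one library left out. E92K against JQ1, with 13, had 8 with library size alone, 8 in the 8 libraries alone, 2 with the TPM values and 9 to 19 with one library left out. E92K against pinometostat, with 0, had 2 with DESeq2, 1 in the 8 libraries alone, 3 without both libraries, 2 with the GC offset without JQ1 replicate 1, and 0 to 3 with one library left out. E92K against H2A had 0 of the 30 in every setting run. Over all genes, pinometostat calls ran from 283 to 3701 with one library left out (1419 with all; 283 without DMSO replicate 1 and 3701 without JQ1 replicate 1), 2348 with DESeq2, 4610 in the 8 libraries alone, 534 with the block, 457 with the TPM values, 4782 without both libraries, 732 with the GC offset and 2299 with it without JQ1 replicate 1. E92K against pinometostat ran from 0 to 1789 with one library left out (61 with all; 1789 without JQ1 replicate 1) and was 862 with DESeq2, 383 in the 8 libraries alone, 306 with no filter, 249 with the GC offset, 0 with the TPM values and 0 with the block. JQ1 had 1872 in the 8 libraries alone (3044 with all), JQ1 against pinometostat 3684 with the TPM values (5919), and E92K against JQ1 2276 in the 8 libraries alone and 2180 with the TPM values (3962). E92K against H2A had 0 genes, 4 with DESeq2, with no filter or without JQ1 replicate 1, 1 without DMSO replicate 1, 3 without both libraries and 2 with the GC offset without JQ1 replicate 1. The cause of these changes was not tested. Per-gene alternatives cover only genes called with or without JQ1 replicate 1. Counts of 17779692 to 27599686 per library limit small differences, and the members' largest SE was that of CYP51A1.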

Other observations

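Lipid genes outside both branches were read in the same fit. Of 23 fatty acid oxidation genes, 2 rose and 1 fell with JQ1, where 7.16% of all genes were higher and 10.4% lower. PPARGC1A, a coactivator of mitochondrial genes, was lower by log2 fold change (-1.06 ± 0.16, edgeR adjusted p = 0.000149), with 2.46, 2.05, 2.28 and 2.28 CPM in JQ1 replicates 1 to 4, against 5.03, 4.68, 4.02 and 5.103 CPM in H2A with DMSO. The dehydrogenase ACADVL was higher (0.51), and 0 oxidation genes were called higher without JQ1 replicate 1. Of 13 glycerolipid synthesis genes tested, DGAT2 was lower (-0.47) and DGAT1 higher (0.36), the pair of enzymes that make triacylglycerol, and the call of DGAT1 was lost without JQ1 replicate 1. With pinometostat, ACADS alone fell among the oxidation genes (-0.43) and 0 of 13 glycerolipid genes passed, against 8.2% of all genes. The calls without JQ1 replicate 1 were 5 and 3, against 21%; with E92K none of either list passed.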
